A study of Mus musculus with 4 samples.

Results

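Transketolase ChIP-seq peaks of mouse retina were described here at 10 genes: the actins Actb and Actg1, the actin-binding genes Cfl1 (cofilin), Pfn1 (profilin), Tmsb4x and Tmsb10 (thymosins), the tubulins Tuba1a, Tuba1b and Tubb5, and Ptma (prothymosin alpha). They were chosen by name after strong peaks had been seen at several of them, so their tag counts and folds are a description and support nothing further. By gene symbol they took 17 of 30791 peaks in the induced list and 5 of 18267 peaks in the noninduced list, and all 10 were found among the 14985 symbols of the lists. Both groups were retinas of Tet-opsin-VEGFA mice, a model of age-related macular degeneration with excess VEGF. The transgene was switched on in the induced mice and left off in the noninduced mice, so both carried it and no mice without it were included. The name points to VEGFA under tetracycline control and an opsin promoter, which is active in photoreceptors; the inducing agent, the duration, the strain, the age and the sex were not given in the labels. Each condition had 2 retinas, 1 ChIP library and 1 input library, and each list set a ChIP library against the input of the same condition. Ptma encodes an acidic nuclear protein that binds histones and is no part of the cytoskeleton, so the set is cytoskeletal with that exception. Peak lists do not measure expression, so the retina label was not checked against marker genes.

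Actin polymerises into filaments that cells build and take apart at a high rate. Profilin feeds monomers to growing ends, cofilin severs old filaments, and the beta-thymosins hold monomers in reserve. Tubulin alpha and beta chains pair into the units of microtubules, which in photoreceptors form the axoneme of the outer segment and in retinal neurons fill axons and dendrites. These genes are short, strongly transcribed in most cells, and belong to families with closely similar copies. Transketolase itself is an enzyme of the non-oxidative branch of the pentose phosphate pathway, and the study asked where it lay on chromatin.

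In induced retinas, every gene of the set was overlapped by a peak of at least 20-fold, and the peaks lay mostly towards the end of the gene and not at its start. By position, 14 induced peaks with 2653 tags overlapped the 10 genes, and 12 of them reached 20-fold, at all 10 genes. These were 0.561% of the 472950 tags inside all induced peaks. In noninduced retinas, 4 peaks with 127 tags overlapped Actb, Tmsb4x and Tubb5, the strongest at 15.64-fold, and these were 0.0361% of the 351574 tags inside all noninduced peaks. Over all 21883 coding genes, 2.39% held an induced peak of at least 20-fold, 33.3% held an induced peak of any strength and 25.2% held a noninduced peak. Over the 3901 coding genes of similar span, 1402 to 6387 bp, those shares were 2.56%, 11.0% and 5.79%. The background behind the fold differed between the lists, whose median folds were 8.59 in the induced list and 5.86 in the noninduced list. Only 1 noninduced peak of the whole list reached 20-fold (0.00547%), against 1073 induced peaks (3.48%), so that threshold does not carry from list to list. Peaks were also ranked by fold within each list, and those of rank 1000 or better were kept with their ties. In the induced list they lay over 10 of the 10 genes (2.27% of all coding genes, 2.49% of those of similar span). In the noninduced list they lay over 3 of 10 (3.92% of all coding genes, 0.743% of those of similar span). There, a tie at 7.82-fold from rank 923 let in 9.35% of the 18267 peaks. Actb and Tubb5 entered only at that fold, so the cut is unlike that of the induced list. Since these values chose the genes, nothing is read from those counts. There was 1 ChIP library per condition, so the spread between animals is unknown and no difference between conditions was tested.

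**Figure D1:**
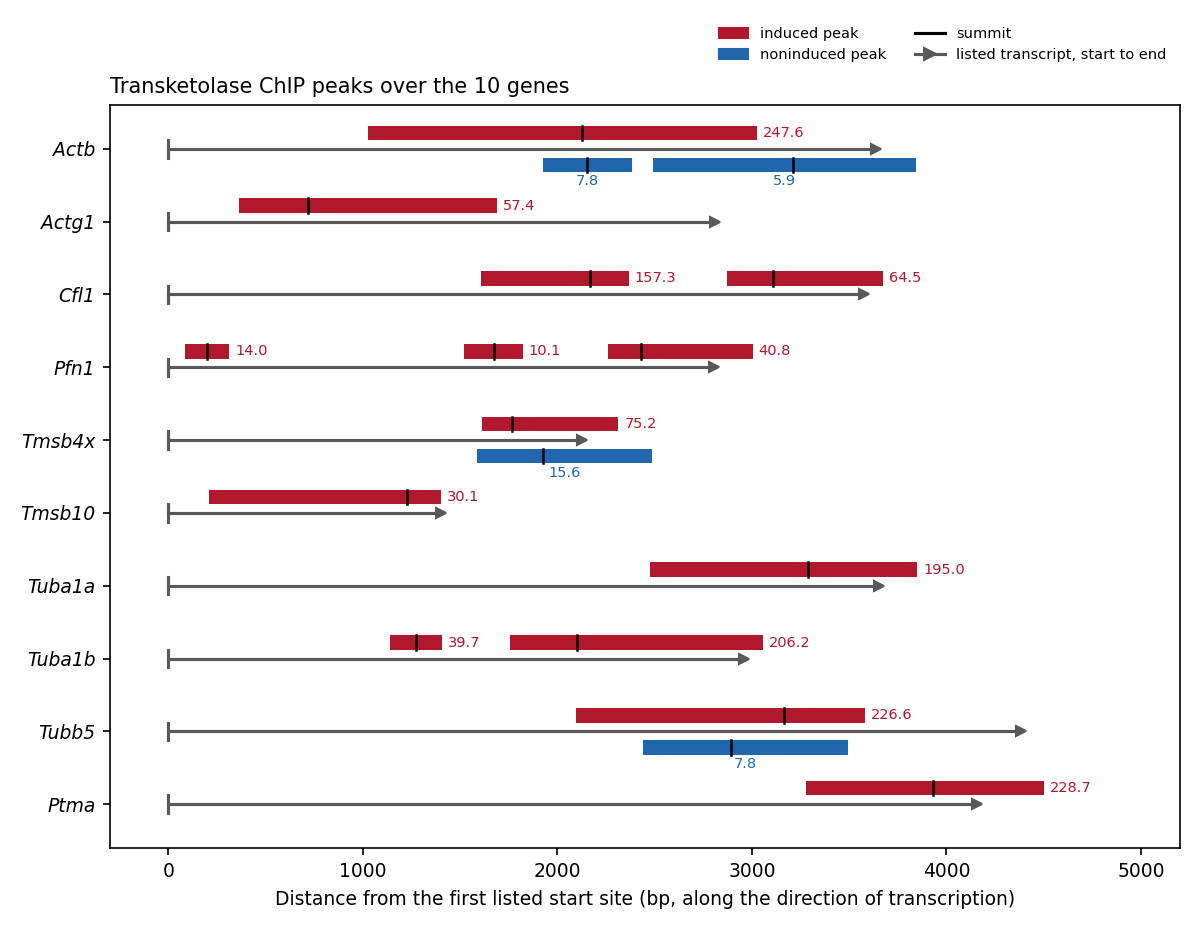
Peaks over the 10 genes, drawn by distance in bp from the first listed start site along the direction of transcription. Red bars are induced peaks, blue bars noninduced peaks, black ticks the summits, numbers the fold enrichment, and grey arrows the listed transcripts. Of the 14 induced peaks, 11 had their summit past the middle of the transcript, and the peak at Tmsb10 was the 1 peak that covered a listed start site.

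Intervals on tag counts below are exact 95% Poisson intervals; they cover counting error only, since PCR copies are not independent molecules and animals vary. The 2 cytoplasmic actins differed in signal. Actb (beta-actin; chr5:142903115-142907976, minus strand, mm10) held a single induced peak, chr5:142903725-142905728, of exon class with 510 tags (467 to 556) at 247.64-fold. Gene spans here come from the RefSeq table and take in all its transcripts, so at Actb, Pfn1 and Tmsb4x they reach well upstream of the start site in the deposited lists; distances are from that listed start site. The peak began 1026 bp after it, spanned 2004 bp, and had its summit 1514 bp before the transcript end. In noninduced retinas 2 peaks lay over the same gene, of 41 tags at 5.91-fold (chr5:142902910-142904264) and 16 tags at 7.82-fold (chr5:142904372-142904830). The deposited annotation lists both as upstream of Fbxl18, a neighbouring gene, so a search by symbol finds no noninduced Actb peak. The induced summit and that of the 7.82-fold noninduced peak lay 28 bp apart.

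Actg1 (gamma-actin; chr11:120345687-120348495, minus strand) held an induced peak, chr11:120346804-120348131, of 92 tags (74.2 to 113) at 57.37-fold. Its class was promoter, because its centre lay 1028 bp from the start site and that class reaches to 2 kb. The near edge of the peak was 364 bp inside the gene and its summit stood 25.5% of the way along, the earliest summit among the induced peaks of at least 20-fold at these genes. The same peak was also listed as a promoter peak of Mir6935 and of 0610009L18Rik, whose start sites are nearby. No noninduced peak was listed over Actg1, in a list whose lowest tag count was 14. Per kb of peak, Actb had 254 tags (233 to 278) and Actg1 69.3 (55.8 to 85.0) in the induced list. Beta- and gamma-actin have nearly identical coding sequence. The sources used here do not say how reads matching several places were treated, so tags may have been split or moved between actin copies, and the same holds for the tubulins.

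The actin-binding genes Cfl1 and Pfn1 each carried more than 1 induced peak, with gaps between them. Cfl1 (cofilin 1; chr19:5490455-5494031, plus strand) had a peak of 159 tags (135 to 186) at 157.34-fold, chr19:5492061-5492822, and a second of 161 tags (137 to 188) at 64.52-fold, chr19:5493325-5494129. The first was of promoter class, though its centre lay 1987 bp from the start site and its near edge 1607 bp inside the gene. The second was of exon class and covered the transcript end. The counting intervals of the 2 peaks overlap, so at these genes a difference in fold does not by itself mean a difference in tags; the background behind each fold was not analysed here.

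Pfn1 (profilin 1; chr11:70651844-70656799, minus strand) had 3 induced peaks. The strongest, chr11:70651645-70652390, was of exon class, held 39 tags (27.7 to 53.3) at 40.80-fold and covered the transcript end. A second of promoter class, chr11:70652828-70653130, held 19 tags (11.4 to 29.7) at 10.10-fold. The remaining peak, chr11:70654337-70654564, held 14 tags (7.65 to 23.5) at 14-fold and was centred 200 bp from the start site, with its near edge 86 bp from it. The tag densities of the 3 peaks, at 52.3, 62.7 and 61.4 tags per kb, differed by less than their counting error. No noninduced peak was listed over Cfl1 or Pfn1. Around the 20-fold threshold, the weakest induced peak inside it was that of Tmsb10 at 30.07-fold and the strongest outside it was the Pfn1 peak at 14-fold.

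The beta-thymosins gave the peak most alike in both conditions and the sole peak over a start site. Tmsb4x (thymosin beta 4; chrX:167207093-167213479, minus strand) held 74 tags (58.1 to 92.9) at 75.16-fold in an induced peak, chrX:167206904-167207608, and 38 tags (26.9 to 52.2) at 15.64-fold in a noninduced peak, chrX:167206733-167207631. The noninduced peak ranked 6 of 18267 by fold, and the induced peak ranked 274 of 30791. All of the induced peak lay within the noninduced peak, the summits were 158 bp apart, and both peaks covered the transcript end. The classes nevertheless differ, promoter in the induced list and exon in the noninduced list. The centres lay 1963 bp and 2037 bp from the start site in the induced and noninduced lists, on either side of the 2 kb limit of the promoter class.

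Tmsb10 (thymosin beta 10; chr6:72957347-72958748, minus strand) is the shortest gene of the set and has 3 listed start sites. Its induced peak, chr6:72957348-72958539, held 44 tags (32.0 to 59.1) at 30.07-fold and covered 85.0% of the longest transcript. Although it ran over start sites, its summit lay 173 bp before the transcript end. A further induced peak of 10 tags at 7.52-fold, the lowest count in the list, lay upstream of the gene. In the noninduced list 2 peaks were assigned to Tmsb10, of 15 tags at 5.86-fold and 19 tags at 5.38-fold, but both were intergenic and the nearer began 12702 bp from a listed start site.

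The stretches just before the start sites are shown for Tmsb10, where the induced peak covers all 250 bases before the innermost start site, and for Pfn1 and Actg1, whose peaks came nearest to a start site without covering it. Sequences are from RefSeq (GRCm38.p6), 5′ to 3′ on the strand of the gene. Capitals mark matches on either strand, overlaps included. The motifs searched were the TATA-like element TATANAA, the pentamer CCAAT that is bound by NF-Y, the GC box GGGCGG that is bound by Sp1 family factors, and the CArG box that is bound by serum response factor.
Tmsb10 (chr6:72958233-72958482, minus strand): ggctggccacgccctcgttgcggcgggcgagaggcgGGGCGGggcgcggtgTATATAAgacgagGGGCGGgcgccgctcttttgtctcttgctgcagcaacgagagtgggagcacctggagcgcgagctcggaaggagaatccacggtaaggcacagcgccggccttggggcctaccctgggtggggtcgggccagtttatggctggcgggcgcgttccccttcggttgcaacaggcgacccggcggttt
Pfn1 (chr11:70654651-70654900, minus strand): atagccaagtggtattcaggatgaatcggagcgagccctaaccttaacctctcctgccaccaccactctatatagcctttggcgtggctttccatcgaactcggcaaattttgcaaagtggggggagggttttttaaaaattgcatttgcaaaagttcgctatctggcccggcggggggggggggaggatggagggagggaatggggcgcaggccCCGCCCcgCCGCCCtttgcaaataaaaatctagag
Actg1 (chr11:120348496-120348745, minus strand): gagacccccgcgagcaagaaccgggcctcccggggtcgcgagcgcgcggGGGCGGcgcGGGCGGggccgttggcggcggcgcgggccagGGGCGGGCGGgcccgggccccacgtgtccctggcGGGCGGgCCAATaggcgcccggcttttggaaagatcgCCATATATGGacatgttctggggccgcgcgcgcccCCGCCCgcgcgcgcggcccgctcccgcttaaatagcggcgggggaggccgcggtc

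The Tmsb10 stretch under the peak has a TATATAA element that begins at -199 from the innermost start site, where negative positions lie upstream, and Actg1 has a CArG box that begins at -90. RefSeq windows were at hand for 9 of the 10 genes, 11 windows in all. GC boxes were present in 9 of the 11 windows, at 7 of the 9 genes, against 32.7% of 32851 windows of the same length over all genes. The median GC content was 56.8% in the 11 windows and 52.4% in all windows. CCAAT was present in 4 of the 11 windows (33.8% of all windows), TATANAA in 2, at Tmsb10 and Tuba1a (10.4%), and the CArG box in 1, at Actg1 (1.47%). Apart from Tmsb10, no window of the 9 genes had a base under an induced peak, so the motifs describe promoters that the peaks left uncovered.

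Alpha-tubulins held broad, strong induced peaks over the ends of neighbouring genes on chromosome 15. Tuba1b (chr15:98931429-98934390, minus strand) had an exon peak, chr15:98931334-98932631, of 448 tags (407 to 491) at 206.17-fold that covered the transcript end, and a promoter-class peak, chr15:98932981-98933253, of 37 tags (26.1 to 51.0) at 39.73-fold. The second began 1137 bp inside the gene. A further peak listed for Tuba1b as upstream, centred at -15946 bp from its start site, lay over the end of Tuba1a (chr15:98949847-98953501, minus strand). That peak, chr15:98949650-98951023, held 283 tags (251 to 318) at 195.00-fold, and its summit was 367 bp before the Tuba1a transcript end. The only induced peak listed for Tuba1a by symbol was an upstream peak of 12 tags at 10.74-fold. In the noninduced list neither gene was overlapped by a peak, and an upstream peak of 22 tags at 7.82-fold, 7645 bp before the start site, was assigned to Tuba1a.

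Tubb5 (a beta-tubulin; chr17:35833920-35838301, minus strand) was listed in both conditions at the same place. The induced peak, chr17:35834718-35836205, held 464 tags (423 to 508) at 226.57-fold, and the noninduced peak, chr17:35834808-35835859, held 32 tags (21.9 to 45.2) at 7.82-fold. Both were of exon class, the noninduced peak lay wholly within the induced peak, and the summits were 272 bp apart. Neither reached the start site or the transcript end: the induced peak began 2096 bp and the noninduced peak 2442 bp after the start site.

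Ptma (chr1:86526557-86530712, plus strand) held an exon peak in the induced list, chr1:86529835-86531057, of 309 tags (276 to 345) at 228.72-fold. It covered the transcript end and had its summit 222 bp before it, at 94.7% of the transcript, the latest summit among the induced peaks over these genes. A second induced peak of 10 tags at 9.75-fold was assigned to Ptma from an intergenic site centred at -28977 bp from the start site. The noninduced list held no peak assigned to Ptma or over it. The strongest peaks of Actb, Tuba1a, Tuba1b, Tubb5 and Ptma all carried a −log10 p of 310, a value shared by 63 peaks of the induced list and passed by 7, so it does not order them.

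Grouped by the annotation, 9 of the 10 genes had an induced exon or promoter peak assigned by symbol, and all 9 reached 20-fold; 10.7% of coding genes had such a peak and 1.08% had one of at least 20-fold. The exception was Tuba1a, because of the assignment just described. In the noninduced list 2 of the 10, Tmsb4x and Tubb5, had an exon or promoter peak (8.27% of coding genes). A peak of any class was assigned to 10 of the 10 in the induced list (45.5% of coding genes) and to 4 in the noninduced list (34.7%). Of the 7 promoter-class induced peaks over the genes, 5 were centred more than 1 kb after the first start site, and only the Pfn1 peak of 14 tags was centred within 500 bp of it. With centres limited to 1 kb for the promoter class, 7 genes kept an exon or promoter peak. The share of coding genes under that limit was not counted, and the 10.7% above is for the wider class. None of the 14 induced or 4 noninduced peaks over the genes overlapped an annotated pseudogene.

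Along the transcripts, the summits of the 12 induced peaks of at least 20-fold had a median position of 77.7% from start to end. Of them, 10 lay past the middle. The 12 were taken by overlap with the gene, so they take in the Tuba1a peak listed for Tuba1b, with its summit at 90.0%. For other coding genes of the same span, 1402 to 6387 bp, peaks were taken only where the annotation assigned them and the summit lay inside the listed transcript. These were 80 induced peaks of at least 20-fold in 73 genes, with a median of 60.8%. By overlap alone, 100 coding genes of that span held such a peak, the 10 genes among them. Strong peaks listed for another gene were thus left out of the 80, and the medians rest on unlike selections. Of these 80 peaks, 51 (63.8%, exact binomial interval 52.2 to 74.2) had their summit past the middle. Peaks under 20-fold taken in the same way as the 80, 286 in all, had a median of 42.0%. Of these, 123 (43.0%, 37.2 to 49.0) had their summit past the middle. Among peaks assigned to other short genes, the strong ones thus also lay later than the weaker ones. Peaks of the same gene are not independent, and no test was made because the genes were chosen from this list.

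**Figure D2:**
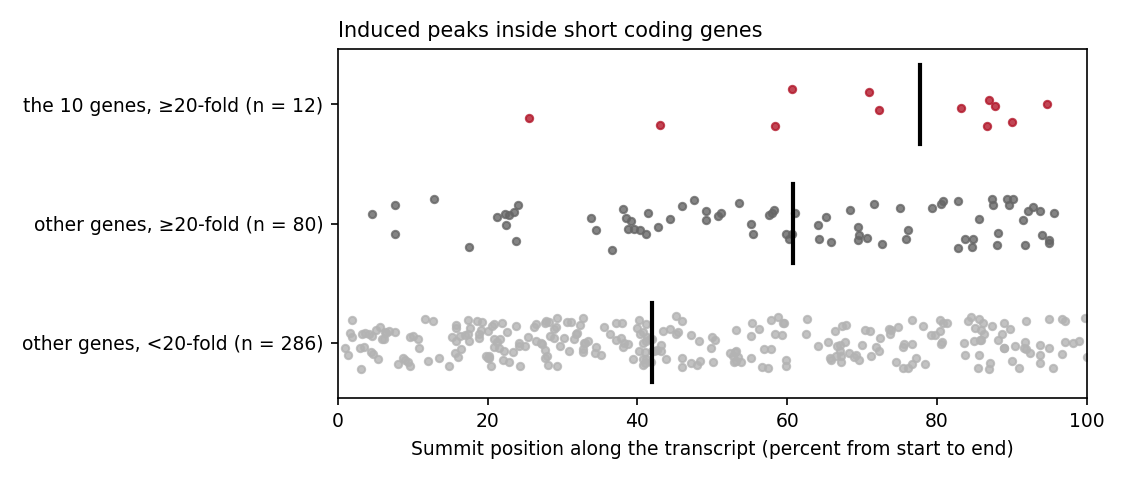
Summit position of induced peaks along the transcript, in percent from start to end. Shown are the 12 peaks of at least 20-fold that overlap the 10 genes, and 80 such peaks and 286 weaker peaks of other coding genes of 1402 to 6387 bp. Peaks of the other genes were taken only where assigned to the gene by the annotation with the summit inside the transcript. Each point is a peak, points are spread vertically at random, and black bars are medians, at 77.7%, 60.8% and 42.0%.

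By median, strong peaks of the set were also long, though their lengths ran from 273 bp at Tuba1b to 2004 bp at Actb. The 12 induced peaks of at least 20-fold over the genes had a median length of 1207.5 bp and a median of 160 tags. The 80 such peaks assigned to other short genes had medians of 753 bp and 53 tags. The median over the whole induced list was 551 bp and 11 tags. The 12 and the 80 were taken in unlike ways and the genes were chosen after strong peaks had been seen, so these medians only describe.

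Where both lists held a peak, the induced peak had more tags, but by an amount that differed from gene to gene. Of the 14 induced peaks over the genes, 3 overlapped a noninduced peak. Over the whole list, 503 of 30791 induced peaks did, and 102 of the 1073 of at least 20-fold. The genes were chosen after strong peaks had been seen, so nothing is read from the 3. Tubb5 had 464 tags in induced retinas against 32 in noninduced retinas, a ratio of 14.5. Tmsb4x had 74 against 38, a ratio of 1.95. Actb had 510 against 57 over 2 peaks. Taken peak by peak, the Actb ratios were 12.4 and 31.9. The deposited false discovery rates of these 2 noninduced Actb peaks were 4.15% and 1.58%, in that order. The noninduced peaks of Tubb5 and Tmsb4x had 0.64% and 0%, and the 3 induced peaks had 0%.

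These ratios are not corrected for library depth, which was unknown because the files give tags within peaks only. Across all 505 overlapping pairs of the lists the median ratio of induced to noninduced tags was 0.700, and over the 103 pairs whose induced peak reached 20-fold it was 6.17. The ratios at Actb and Tubb5 lay above the second median and that of Tmsb4x below it. Overlap depended on its definition for a single gene each time: with at least 50% of both peaks shared, Tubb5 and Tmsb4x remained, and with summits within 200 bp, Actb and Tmsb4x remained.

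**Figure D3:**
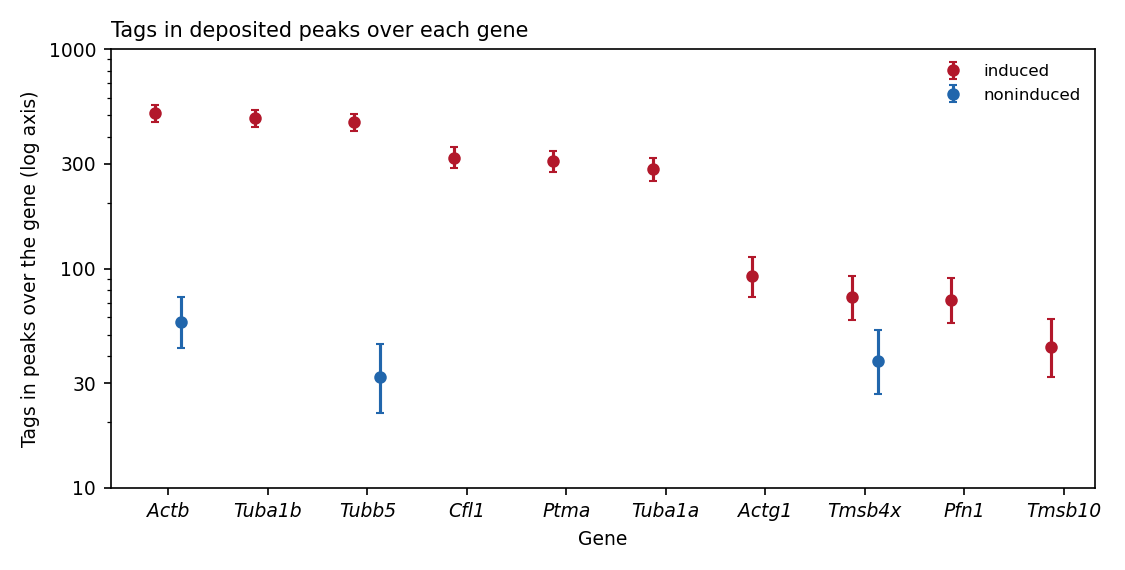
Tags in deposited peaks over each gene (log axis), summed over the peaks that overlap it, with exact 95% Poisson intervals; induced in red and noninduced in blue. A gene without a blue point had no noninduced peak listed, and induced sums run from 44 at Tmsb10 to 510 at Actb.

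**Figure D4:**
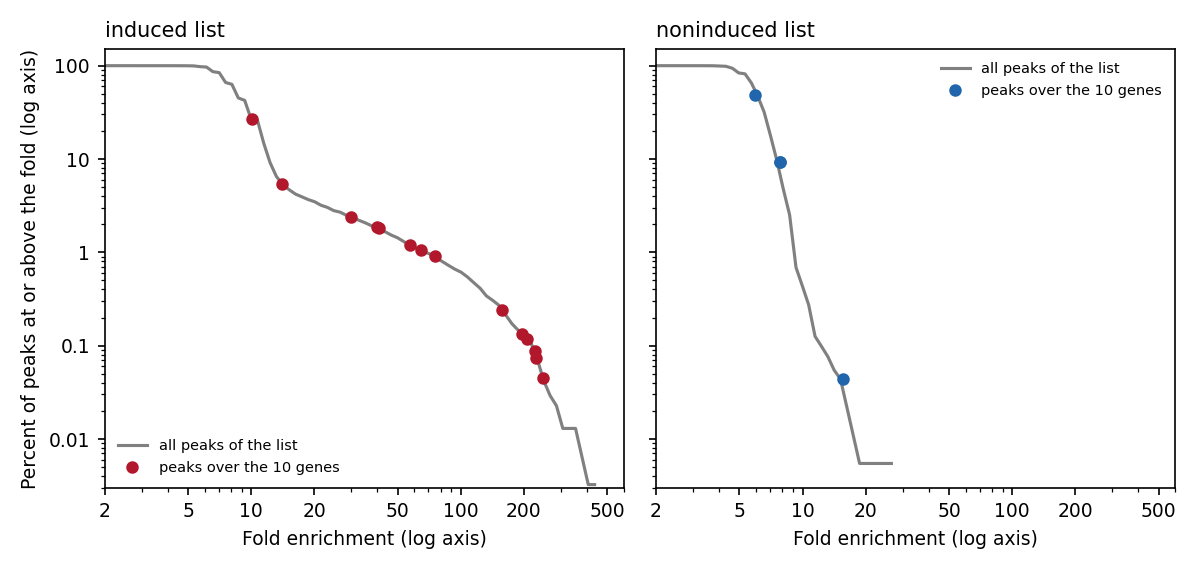
Share of peaks at or above a given fold enrichment in the induced list (left) and the noninduced list (right), both axes logarithmic, with the peaks over the 10 genes as points. Folds over the genes run from 10.10 to 247.64 in the induced list and from 5.91 to 15.64 in the noninduced list, and folds of the 2 lists rest on different backgrounds.

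By tag density of the strongest induced peak, which allows genes to be compared per length, the order was Tuba1b (345 tags per kb, 314 to 379), Tubb5 (312, 284 to 342), Actb (254, 233 to 278), Ptma (253, 225 to 282), Cfl1 (209, 177 to 244) and Tuba1a (206, 183 to 231). Then came Tmsb4x (105, 82.4 to 132), Actg1 (69.3, 55.8 to 85.0), Pfn1 (52.3, 37.2 to 71.5) and Tmsb10 (36.9, 26.8 to 49.6). Neighbours in that order had overlapping counting intervals except at 2 steps, between Tubb5 and Actb and between Tuba1a and Tmsb4x. The median peak of the induced list had 21.0 tags per kb. The 3 genes with a noninduced peak had 42.3 tags per kb at Tmsb4x, 34.9 and 30.3 at Actb and 30.4 at Tubb5, with intervals that all overlap, against a list median of 24.9.

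Among 112 other genes of the cytoskeleton, 27 (24.1%) had an exon or promoter peak in the induced list and 12 (10.7%) in the noninduced list, against 10.7% and 8.27% of coding genes. Those with an induced peak of at least 20-fold numbered 12 (10.7%, against 1.08% of coding genes), and none had a noninduced peak of that strength. Tubulins made up 5 of the 12, out of 17 tubulin genes listed. They were Tuba1c (195.43-fold, 466 tags), Tubb3, the neuronal beta-tubulin (153.55-fold, 187 tags), Tubb2a (100.03-fold, 161 tags), Tuba4a (68.72-fold, 124 tags) and Tubb6 (28.66-fold, 51 tags). By position, with peaks of any class, 7 of the 17 tubulins held a peak of at least 20-fold, against 2.39% of all coding genes. Tubb4b (72.83-fold, 206 tags) and Tubb2b (44.03-fold, 98 tags) were added, whose peaks the annotation lists as upstream of Nelfb and of 4930447K03Rik.

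Tuba1c lies next to Tuba1a on chromosome 15, and its main peak had 307 tags per kb (280 to 336), between Tubb5 and Actb in the order above. With it, all 3 alpha-tubulin genes of that cluster held an induced peak of at least 195-fold that ran past the gene end.

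The other 7 genes came from 3 groups. Acta1, skeletal muscle actin (51.54-fold, 53 tags), and Actr3, a subunit of the Arp2/3 complex that branches actin filaments (25.77-fold, 25 tags), were 2 of 10 actin and actin-related genes. Pfn2, the neuronal profilin (33.29-fold, 39 tags), Dstn, which severs actin as cofilin does (31.20-fold, 32 tags), and Fscn1, which bundles actin filaments (31.14-fold, 50 tags), were 3 of 43 actin-binding genes. Vim, an intermediate filament of Müller glia (69.13-fold, 93 tags), and Lmna, a lamin of the nuclear envelope (41.88-fold, 45 tags), were 2 of 9 intermediate filament genes. Of the peaks at Vim, Lmna and Fscn1, each was centred within 500 bp of the start site, at 291, 386 and 451 bp. Of the strong peaks of the 10 genes, only that of Tmsb10 covered or was centred so near a listed start site. No peak of at least 20-fold was assigned as exon or promoter to the 7 Arpc genes of the Arp2/3 complex, the 5 genes of other beta-thymosins and parathymosin, or the 21 genes of tubulin folding and microtubule binding.

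**Figure D5:**
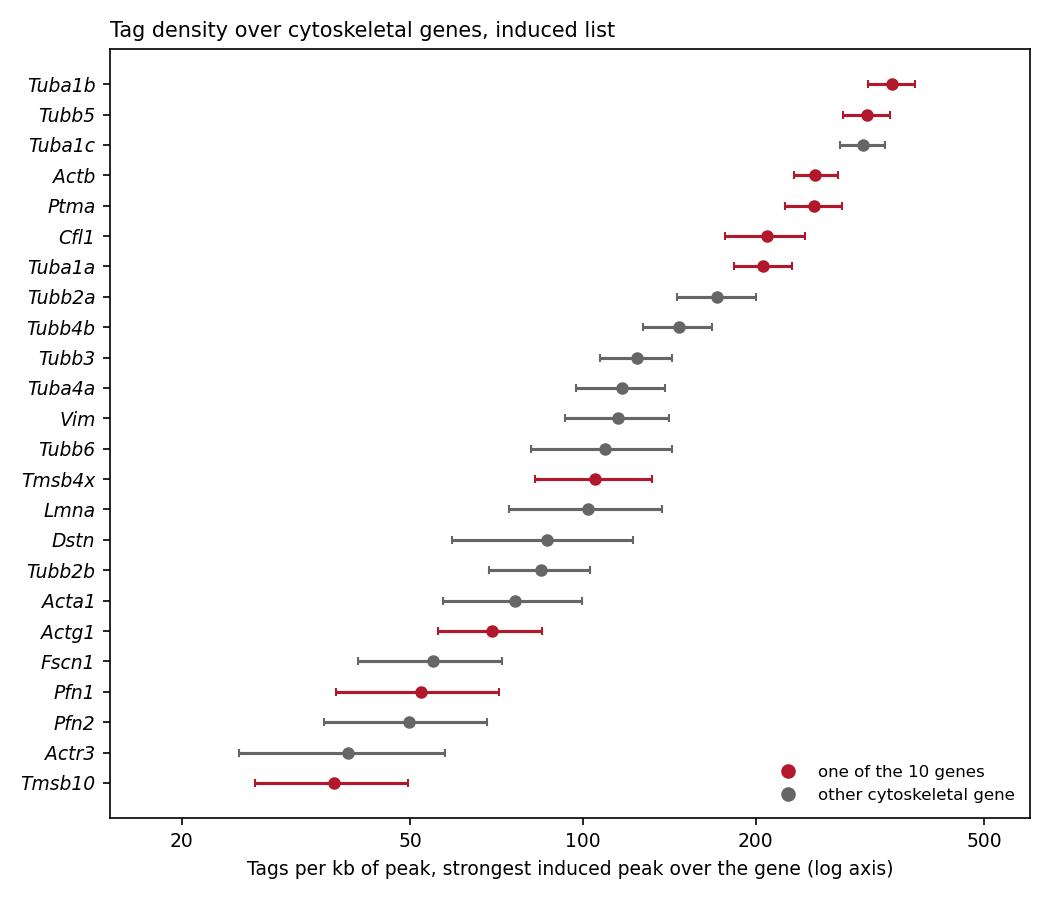
Tags per kb of peak in the strongest induced peak over each gene (log axis) with exact 95% Poisson intervals, for the 10 genes (red) and the 14 other cytoskeletal genes with an induced peak of at least 20-fold (grey). Values run from 36.9 at Tmsb10 to 345 at Tuba1b; Map7 is left out because its peak is listed as the promoter of Rpl32l, which lies within it.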

How the data were processed

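Per the submitters' processing notes, Bowtie2 2.2.7 aligned the reads to mm10 (GRCm38) and FastQC is listed as a tool; which program called peaks is not given in the sources used here. Tags per peak were deposited as raw counts of the ChIP library, per the file headers. Fold enrichment, deposited per peak, is a ratio over a background that the headers do not describe. The score was deposited as 10 times −log10 p, per the file headers, and is given as −log10 p. A percent false discovery rate per peak was also deposited by the authors. It was given only where peaks of both lists overlapped at the 10 genes, and no peak was selected by it. Fold, score and class are the authors' own values.

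Peaks, listed once per RefSeq transcript, were counted once. They were tied to genes by the deposited symbol and by overlap of at least 1 bp with gene spans of a RefSeq table of GRCm38.p6, to which 99.7% of lines of each list matched. Summit positions were taken from the offset in each peak. Coding genes on the autosomes, X and Y were the background. The members and gene lists were chosen with earlier results of these data known. All 10 genes are named, and of the other cytoskeletal genes those whose exon or promoter class peak reached 20-fold; Tubb4b, Tubb2b and Map7 were added after their values were seen. No test was possible with 1 ChIP library per condition. The overlap step was tested on simulated data. A further 3 sheets held no values. Software was Python 3.11.15 with scipy 1.17.1, numpy 2.4.6, pandas 2.3.3 and matplotlib 3.10.9.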

Additional observations from a re-analysis of the deposited data

How the results depend on the processing

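No paired analysis was possible because there was a single ChIP library per condition, and no replicate was there to leave out. With a −log10 p of at least 10, the noninduced list held 1 gene of the 10 with an assigned peak (4 with all peaks). It held 1 with an exon or promoter peak (2 with all peaks) and 1 assigned peak (5 with all peaks). That gene is Tmsb4x. The setting leaves fewer peaks, and the noninduced Tubb5 peak, at 9.953, fell just below it. The other 28 values under alternatives chosen at the outset, and 6 under alternatives chosen after seeing the data, stayed within 1.5 times the reported counts. That limit is wide for small counts. Genes with a noninduced exon or promoter peak went from 2 to 3 by position. Induced peaks overlapping a noninduced peak went from 3 to 2 under either stricter definition. Leaving out peaks over pseudogenes kept all 17 induced and 5 noninduced assigned peaks, since none lay over one, and so tested nothing. The genes were chosen after strong peaks had been seen, so stable induced counts are no sign of robustness. The 9 genes whose induced exon or promoter peak reached 20-fold became 9 at 10-fold and 7 at 50-fold. By position, with peaks of any class, 10 genes held a peak of at least 20-fold, Tuba1a through a peak of upstream class. Depth was unknown, so a gene without a noninduced peak is not shown to lack binding.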

Other observations

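Pseudogenes named after the 10 genes were few in the gene table, and some held induced peaks. Actb-ps1, on chromosome X, held a peak of 68 tags at 70.87-fold, and Ptma-ps2, on chromosome 4, a peak of 30 tags at 30.07-fold. Ptma-ps1, on chromosome 7, held none, and the noninduced list placed no peak over the 3. Pseudogenes whose names do not show their parent gene were not analysed here. A peak of 36 tags at 28.99-fold within Map7, a microtubule-binding gene, was listed as the promoter of Rpl32l.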
